A study of Mus musculus with 6 samples.

Results

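The odorant receptor genes of the mouse chromosome 10 cluster, Olfr763 to Olfr827, were compared between sorted olfactory cells with and without a working Fezf1 gene. The members were the genes named Olfr with a plain number in that range. RefSeq lists 57 such genes, all on chromosome 10, and 47 of them had a probe set assigned to that gene alone, of 1022 odorant receptors and 19938 genes measured. Of the other 10, 7 were covered only by probe sets shared between receptors and 3 (Olfr779, Olfr785 and Olfr789) by no listed probe set. No member had more than 1 probe set, and no filter on low values was applied.

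The cells were sorted by EGFP from the microdissected main olfactory epithelium of C57BL/6 embryos at E18.5. The targeted allele places EGFP under the endogenous Fezf1 promoter, so Fezf1+/- cells carried 1 targeted copy and Fezf1-/- cells only targeted copies, and both groups were defined by the activity of the promoter of the gene that was removed. No wild-type cells were hybridised in these arrays. Each group had 3 Affymetrix 1.0 ST arrays, and the labels do not say whether embryos were pooled or came from separate litters, so the p-values below reflect the spread among these arrays only, which may be technical. Differences are given as Fezf1-/- minus Fezf1+/- on the log2 scale, and "fell" is used for a limma p of at most 0.05 after Benjamini-Hochberg adjustment over all 19938 genes.

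Odorant receptors are G protein-coupled receptors through which olfactory sensory neurons detect volatile compounds. Each mature neuron transcribes a single receptor gene from a single allele, chosen from a repertoire that lies in tandem clusters on many chromosomes. The clusters grew by local duplication, so neighbours are often close in sequence, and the MOR names among the RefSeq synonyms group the genes into families by sequence. The 47 measured members fell into 12 such families, with MOR114, MOR110 and MOR111 the most numerous, and 1 member (Olfr765) had no MOR name.

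Fezf1 itself read 11.25, 11.12 and 11.30 on the Fezf1+/- arrays and 5.56, 5.92 and 6.28 on the Fezf1-/- arrays, a difference of -5.31 (SE 0.19, limma adjusted p = 0.000755), so the genotype labels held for every array. The 6 arrays had medians of 5.82 to 5.95 and lower quartiles of 4.30 to 4.44. Fezf1-/- replicate 1 stood apart, with correlations across genes of 0.905 to 0.935 to the other arrays against 0.975 to 0.995 among the other 5. Results are therefore given for all 6 arrays and for the 5 arrays without it. Markers of mature olfactory neurons (18 of 18 listed were measured) averaged 9.60 to 10.07 on the Fezf1+/- arrays and 7.78, 9.04 and 9.10 on Fezf1-/- replicates 1, 2 and 3, well above the array medians. Of the 18, 13 were lower at an unadjusted p under 0.05 (5.25% of all genes), although 0 passed by limma after adjustment. Mesenchyme and bone markers (11 of 12 measured) averaged 10.08 on Fezf1-/- replicate 1 against 6.40 to 7.52 on the other 5 arrays, and myeloid markers (12 of 12) 7.20 against 5.04 to 5.25. Their part in the receptor values was not tested, and in a bulk sort fewer neurons using a receptor and less receptor RNA per neuron cannot be told apart.

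Among the 47 receptors, 5 fell in Fezf1-/- cells and 0 rose. The 5 were Olfr787, Olfr788 and Olfr802 of family MOR111, Olfr805 of family MOR110, and Olfr820, the only measured member of MOR116. This was 10.6% of the members, where 0.456% of all genes tested fell, and 7.49% of the 975 other odorant receptors. Each of the 5 also passed the 2-fold limit (0.451% of all genes), and 26 of the 47 were lower at an unadjusted p under 0.05 (5.25% of all genes), while 0 of the 47 were higher by that limma criterion (4.23% of all genes).

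Olfr820 had the lowest difference of the cluster. It read 7.55, 7.53 and 7.90 on the Fezf1+/- arrays and 4.32, 4.49 and 5.03 on the Fezf1-/- arrays, with a gap of more than 2 log2 units between the groups. The mean fell from 7.66 ± 0.21 to 4.61 ± 0.37 (SD, n = 3 each), a difference of -3.05 (SE 0.21, limma adjusted p = 0.00449). Fezf1-/- replicate 1 lay under the lower quartile of its array (4.44) and replicate 2 close to its own (4.41), so no fold is given. It was the only member that fell whichever single array was left out.

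Olfr805 and Olfr788 followed. Olfr805 read 6.89, 6.88 and 7.35 in Fezf1+/- cells and 4.47, 4.96 and 5.30 in Fezf1-/- cells, a difference of -2.13 (SE 0.25, limma adjusted p = 0.0286). Its value on Fezf1-/- replicate 1 lay close to the lower quartile of that array (4.44), so no fold is given. Olfr788 read 6.48, 6.12 and 6.74 against 3.99, 4.41 and 4.47, a difference of -2.16 (SE 0.21, limma adjusted p = 0.0168). In both genes every Fezf1-/- array was lower than every Fezf1+/- array by more than 1 log2 unit. Olfr802 read 5.71, 5.66 and 5.96 against 3.64, 4.32 and 4.24, a difference of -1.71 (SE 0.20, limma adjusted p = 0.0317). Olfr787 read 4.44, 4.56 and 4.81 against 3.14, 3.26 and 3.29, a difference of -1.37 (SE 0.12, limma adjusted p = 0.0119). The Fezf1-/- means of Olfr787 (3.23), Olfr802 (4.07) and Olfr788 (4.29) lay under the lower quartile of every array, where the signal depends on the background estimate, so no fold is given for them.

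**Figure D1:**
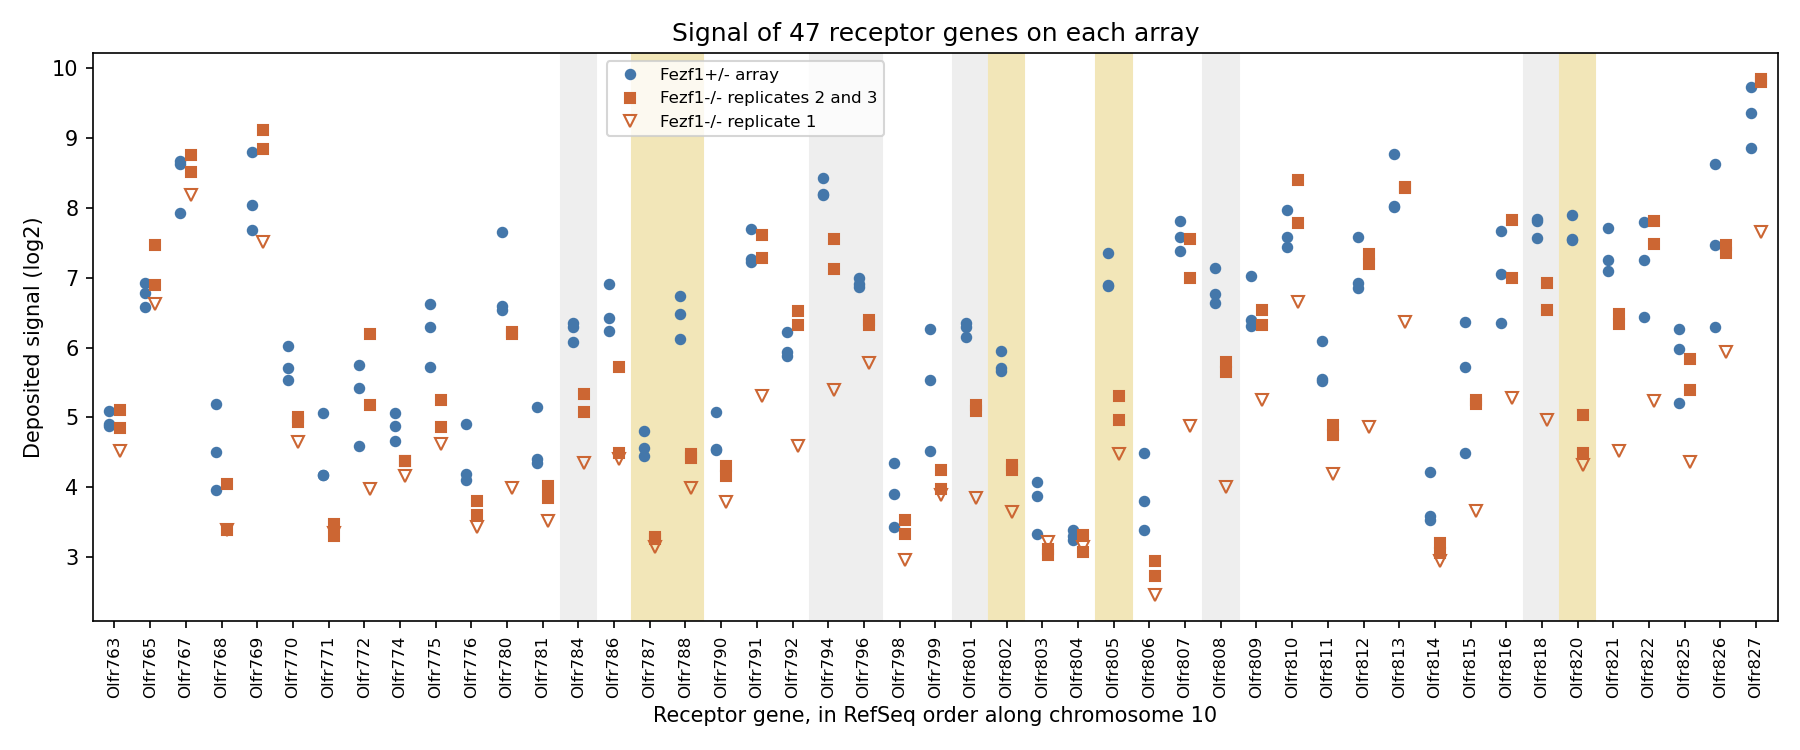
Deposited log2 signal of the 47 receptor genes on each of the 6 arrays, in RefSeq order along chromosome 10, with circles for Fezf1+/- arrays, squares for Fezf1-/- replicates 2 and 3 and open triangles for Fezf1-/- replicate 1. Yellow bands mark the 5 genes that fell over all 6 arrays and grey bands the 6 that passed only without Fezf1-/- replicate 1, and signals of different genes come from different probe sets and do not rank their amounts.

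RefSeq windows show what surrounds the coding start of genes that fell. RefSeq held a window of 250 bases before and 50 after the start of the gene model for 39 of the 47 members, including all 5 that fell. In 38 of the 39 the model began with its ATG, and 46 of the 47 model lengths were multiples of 3, so these models hold the coding exon and the windows lie before the start codon, not at a mapped transcription start. Olfr820, Olfr788 and Olfr802 are shown because, among the 5 that fell, these 3 carry the homeodomain core TAATTA. Capitals mark TAATTA and the ATG at the first base of the model.
Olfr820 (GRCm38.p6 chr10:130017113-130017412, plus strand): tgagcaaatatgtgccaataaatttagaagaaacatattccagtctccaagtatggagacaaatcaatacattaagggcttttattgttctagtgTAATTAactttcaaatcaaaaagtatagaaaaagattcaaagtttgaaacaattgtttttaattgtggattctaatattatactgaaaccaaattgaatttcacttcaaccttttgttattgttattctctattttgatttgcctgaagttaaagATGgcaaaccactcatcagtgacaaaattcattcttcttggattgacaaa
Olfr788 (GRCm38.p6 chr10:129472444-129472743, plus strand): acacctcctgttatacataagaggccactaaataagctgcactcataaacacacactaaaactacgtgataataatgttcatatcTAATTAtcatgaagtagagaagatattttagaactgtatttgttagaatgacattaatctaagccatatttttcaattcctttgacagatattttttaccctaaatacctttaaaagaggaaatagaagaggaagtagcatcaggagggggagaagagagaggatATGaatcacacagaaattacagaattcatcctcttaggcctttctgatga
Olfr802 (GRCm38.p6 chr10:129682688-129682987, minus strand): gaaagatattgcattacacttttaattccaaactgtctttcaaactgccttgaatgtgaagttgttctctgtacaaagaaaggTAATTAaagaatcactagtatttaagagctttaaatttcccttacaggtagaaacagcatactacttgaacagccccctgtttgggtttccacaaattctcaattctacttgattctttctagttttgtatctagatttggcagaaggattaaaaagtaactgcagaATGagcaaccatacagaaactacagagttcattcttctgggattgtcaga
TAATTA, which reads the same on both strands, was found in the windows of 8 of 39 members (20.5%), 168 of 907 windows of other odorant receptors and 5.29% of all 32851 windows in the table. Among members it stood in 5 of the 22 whose 3 Fezf1-/- values lay below every Fezf1+/- value and in 3 of the other 17. Olfr787 and Olfr805 fell with no TAATTA in their windows. The sequence TATAAA, or TTTATA on the other strand, was found in 23 of 39 members, 40.4% of the other receptors and 13.6% of all windows. It stood in 12 of the 22 members whose 3 Fezf1-/- values lay below every Fezf1+/- value and in 11 of the other 17. None of the 5 that fell over 6 arrays carried it, but Olfr784 and Olfr818, which fell without Fezf1-/- replicate 1, did. A match in these letters is a description of the window and not a binding site.

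Without Fezf1-/- replicate 1, 11 of 47 members fell (23.4%), where 1.67% of all genes and 18.3% of the other odorant receptors did. By limma 0 members rose in those 5 arrays (0.993% of all genes), with 2 higher before adjustment (7.63% of all genes). All 5 members that fell over 6 arrays were among the 11. The count of members that fell was 2 without any one of Fezf1+/- replicates 1, 2 and 3, and 1 without Fezf1-/- replicate 2 or 3. In the 5 arrays Olfr820 differed by -2.90 (SE 0.19, limma adjusted p = 0.000928), Olfr788 by -2.01, Olfr805 by -1.91, Olfr802 by -1.49 and Olfr787 by -1.33, each within 0.3 of its value over 6 arrays. Those 5 members were picked by the fit over 6 arrays, which holds the same 5 arrays. Neither their pass here nor their small change is therefore an independent check.

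The 6 members added in the 5 arrays were Olfr784, Olfr794, Olfr796, Olfr801, Olfr808 and Olfr818. Olfr801 read 6.14, 6.35 and 6.30 in Fezf1+/- cells and 3.85, 5.18 and 5.08 on Fezf1-/- replicates 1, 2 and 3. In the 5 arrays it fell by 1.13 (SE 0.10, limma adjusted p = 0.00354), while over all 6 arrays the difference was -1.56 with an adjusted p of 0.222. Olfr808 read 6.77, 6.65 and 7.15 against 4.00, 5.66 and 5.79, and fell by 1.13 in the 5 arrays (SE 0.16, limma adjusted p = 0.019). In both genes Fezf1-/- replicate 1 was the lowest array by more than 1 log2 unit, and the other Fezf1-/- arrays still lay below every Fezf1+/- array.

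Olfr794 read 8.18, 8.20 and 8.42 in Fezf1+/- cells and 5.39, 7.13 and 7.56 in Fezf1-/- cells, and its difference changed from -1.58 (SE 0.55) over 6 arrays to -0.93 (SE 0.15, limma adjusted p = 0.0304) over 5. Olfr818 read 7.85, 7.81 and 7.57 against 4.97, 6.54 and 6.92, with -1.60 over 6 arrays and -1.01 over 5 (limma adjusted p = 0.0218). Olfr784, with -1.04 (limma adjusted p = 0.0109), and Olfr796, with -0.57 (limma adjusted p = 0.0306), fell in the 5 arrays as well. The fall of Olfr796, from a Fezf1+/- mean of 6.92 ± 0.07 (SD, n = 3), was the smallest of the 11, a 1.48-fold lower signal.

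**Figure D2:**
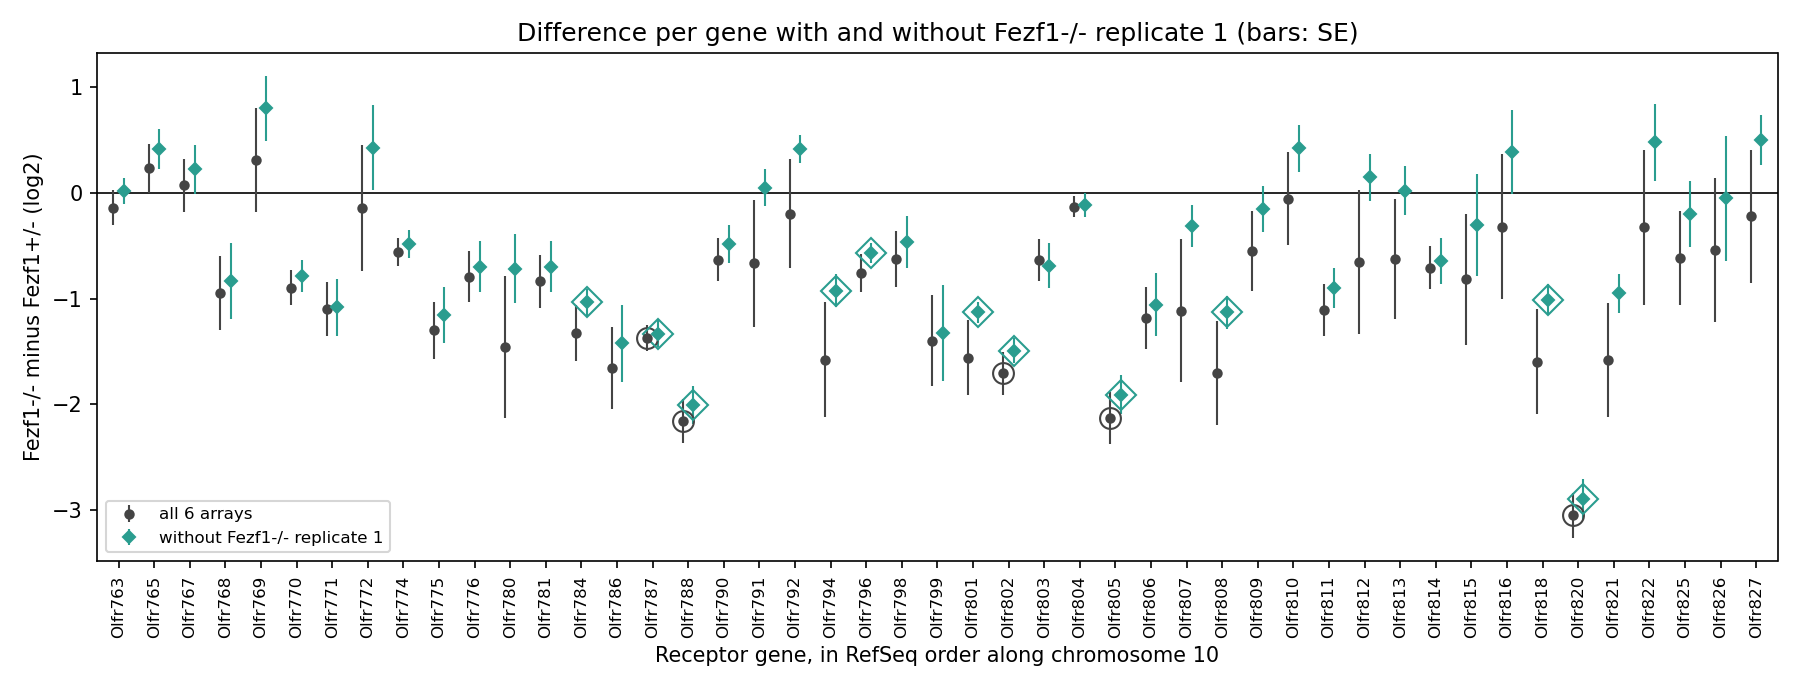
Difference between Fezf1-/- and Fezf1+/- arrays on the log2 scale with its standard error for each of the 47 receptor genes in RefSeq order, over all 6 arrays (circles) and without Fezf1-/- replicate 1 (diamonds). Large open symbols mark the 5 and the 11 genes that fell, with Olfr820 lowest at -3.05 and -2.90.

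Over 6 arrays 44 of 47 differences were negative (93.6%), beside 92.4% of the other odorant receptors and 45.2% of all genes. The median was -0.79, beside -0.73 and 0.02. The 5-array median was -0.64 with 34 of 47 negative (72.3%), beside -0.40 and 0.02 with 73.3% and 44.7% negative. The mean signal of the members on the Fezf1+/- arrays was 5.94, 6.08 and 6.52, and on the Fezf1-/- arrays 4.58, 5.62 and 5.61. The other odorant receptors averaged 6.08, 6.15 and 6.60 against 4.77, 5.66 and 5.78 on the same arrays. In both sets Fezf1+/- replicate 3 was the highest array and Fezf1-/- replicate 1 the lowest, and the groups did not overlap.

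The members minus the other receptors stood at -0.13, -0.07 and -0.08 on the Fezf1+/- arrays and -0.19, -0.04 and -0.16 on the Fezf1-/- arrays. This gap differed by -0.04 between genotypes (exact two-sided permutation test over 6 arrays, p = 0.5, smallest possible p = 0.1), less than the spread between the Fezf1-/- arrays (SD 0.08, n = 3). With 3 arrays against 3 this test cannot pass 0.05 and does not show that the cluster and the other receptors moved alike. The neighbouring range by number, Olfr828 to Olfr986 (109 genes), had a median of -0.54 over 6 arrays and -0.12 over 5, and 2 and 7 of its genes fell. The large Olfr1006 to Olfr1318 range (225 genes) had medians of -0.82 and -0.56, and 25 and 56 of its genes fell. Differences between these ranges were not tested.

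**Figure D3:**
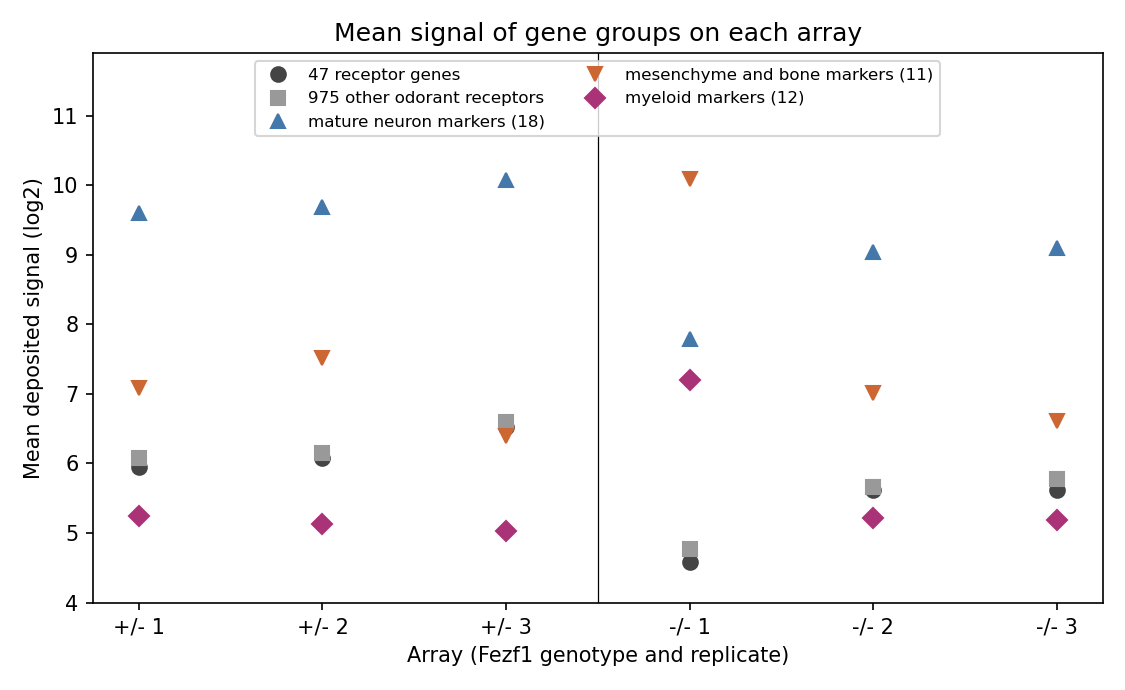
Mean log2 signal on each array of the 47 receptor genes, the 975 other odorant receptors, 18 mature neuron markers, 11 mesenchyme and bone markers and 12 myeloid markers. On Fezf1-/- replicate 1 the receptors averaged 4.58, their lowest value, and the mature neuron markers 7.78, while mesenchyme and bone markers stood at 10.08 and myeloid markers at 7.20, their highest values.

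The members differed in how they behaved across the 3 Fezf1-/- arrays. In 26 of 47 all 3 Fezf1-/- values lay below every Fezf1+/- value (55.3%), where 8.77% of all genes and 44.5% of the other receptors did so, and in 0 members did all 3 lie above (9.72% of all genes). These 26 had differences from -3.05 to -0.56 over 6 arrays and from -2.90 to -0.48 over 5, and 11 of them had Fezf1-/- means under the lower quartile of every array. In the 5 arrays the count was 26 too, where 16.3% of all genes and 44.6% of the other receptors had every Fezf1-/- value below. Leaving out a Fezf1-/- array cannot lower this count, so it is not a check. In 14 members (29.8%) only Fezf1-/- replicate 1 lay below every Fezf1+/- array. Among the other receptors 32.9% had exactly 1 Fezf1-/- array, of any number, below every Fezf1+/- array. In those 14 the value on replicate 1 minus the mean of the other Fezf1-/- arrays ran from -2.41 to -1.18 log2 units, and without that array their differences ran from -0.30 to 0.80, with 10 positive and 4 negative. Fezf1-/- replicate 1 was the lowest of the 3 Fezf1-/- arrays in 43 of the 47 members, and Fezf1+/- replicate 3 the highest of the 3 Fezf1+/- arrays in 39.

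Olfr827 at the far end of the cluster belongs to those 14. It read 8.86, 9.37 and 9.74 in Fezf1+/- cells and 7.65, 9.80 and 9.85 on Fezf1-/- replicates 1, 2 and 3. Replicate 1 was the lowest of the 6 arrays and the other Fezf1-/- arrays the highest, so the sign of the difference rested on that array (-0.22 over 6 arrays and 0.50 over 5, limma adjusted p = 0.918 and 0.36). Olfr813 read 8.02, 8.02 and 8.77 against 6.36, 8.29 and 8.29, with -0.62 over 6 arrays and 0.021 over 5. Olfr810 read 7.44, 7.59 and 7.98 against 6.66, 7.79 and 8.40, with -0.06 and 0.42. In all 3 genes Fezf1-/- replicates 2 and 3 lay within or above the range of the Fezf1+/- arrays.

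Olfr769 read 7.69, 8.04 and 8.81 in Fezf1+/- cells and 7.51, 8.84 and 9.12 in Fezf1-/- cells, the most positive difference of the cluster over 6 arrays (0.31, SE 0.49, limma adjusted p = 0.846) and over 5 (0.80, SE 0.31, limma adjusted p = 0.267). Olfr792 read 5.94, 5.88 and 6.22 against 4.59, 6.53 and 6.33, with -0.20 over 6 arrays and 0.42 over 5. Olfr772 read 5.75, 4.59 and 5.42 against 3.98, 6.19 and 5.17, and its groups overlapped. Olfr769, Olfr792 and Olfr827 were the only members in which Fezf1-/- replicates 2 and 3 both lay above every Fezf1+/- array (6.38% of members, 19.9% of all genes), and none of the 3 passed.

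Near the first end of the cluster, Olfr765 and Olfr767 were the only members with no Fezf1-/- array below every Fezf1+/- array. Olfr765 read 6.93, 6.58 and 6.79 in Fezf1+/- cells and 6.63, 7.47 and 6.90 in Fezf1-/- cells, a difference of 0.23 (SE 0.23, limma adjusted p = 0.76). Olfr767 read 8.68, 8.63 and 7.93 against 8.19, 8.76 and 8.52, a difference of 0.07 (SE 0.25, limma adjusted p = 0.931). The groups overlapped in both genes, also on Fezf1-/- replicate 1. Their windows were the most alike of the 741 pairs of members compared over the 250 bases before the start, at 90.6% identity against a median of 52.4%, and are shown for that reason. Capitals mark TATAAA and the ATG.
Olfr765 (GRCm38.p6 chr10:129047012-129047311, minus strand): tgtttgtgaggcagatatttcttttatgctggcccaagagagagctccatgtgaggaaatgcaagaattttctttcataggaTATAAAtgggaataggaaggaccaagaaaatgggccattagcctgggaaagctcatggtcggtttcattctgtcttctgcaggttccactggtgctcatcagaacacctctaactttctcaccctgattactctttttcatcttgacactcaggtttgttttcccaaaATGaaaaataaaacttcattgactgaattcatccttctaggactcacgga
Olfr767 (GRCm38.p6 chr10:129079912-129080211, minus strand): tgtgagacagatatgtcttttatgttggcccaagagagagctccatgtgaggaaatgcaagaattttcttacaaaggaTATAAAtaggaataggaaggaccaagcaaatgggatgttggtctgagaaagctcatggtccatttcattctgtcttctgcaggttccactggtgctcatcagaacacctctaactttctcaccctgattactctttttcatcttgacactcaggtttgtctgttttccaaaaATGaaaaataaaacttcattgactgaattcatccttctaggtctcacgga
Each of the pair carries TATAAA and neither carries TAATTA, while the window of Olfr769 has neither. Whether probe sets of such like genes bind each other's transcripts was not tested. Among other like pairs, Olfr775 and Olfr776 (81.7% identity) differed by -1.30 and -0.79 over 6 arrays, and Olfr792 and Olfr798 (85.8%) by 0.42 and -0.46 in the 5 arrays. The Fezf1+/- and Fezf1-/- means of Olfr798 (3.89 and 3.27) lay under the lower quartile of every array, so its difference is limited by background.

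The members were next grouped by MOR family, a grouping chosen after the values were seen and given as a description. All 8 measured members of MOR111 (Olfr774, Olfr775, Olfr776, Olfr786, Olfr787, Olfr788, Olfr802 and Olfr803) had their 3 Fezf1-/- values below every Fezf1+/- value. Of all genes 8.77% did so, and of the other odorant receptors 44.5%. The MOR111 median was -1.34 over 6 arrays and -1.24 over 5. In either fit 3 of the 8 fell, where 0.456% and 1.67% of all genes and 7.49% and 18.3% of the other receptors did. Olfr786, which did not pass, read 6.24, 6.43 and 6.90 against 4.40, 5.72 and 4.48 (-1.66, SE 0.39, limma adjusted p = 0.23). Olfr775 read 5.72, 6.29 and 6.63 against 4.62, 5.25 and 4.86 (-1.30, SE 0.27, limma adjusted p = 0.175). Olfr774 (-0.56), Olfr776 (-0.79) and Olfr803 (-0.64) differed less and had Fezf1+/- means of 4.86, 4.40 and 3.76, the last under the lower quartile of every array. A probe set shared by Olfr774, Olfr775, Olfr776 and Olfr787 read 8.09, 7.75 and 8.11 in Fezf1+/- cells and 5.10, 6.22 and 5.88 in Fezf1-/- cells. Its groups were more than 1 log2 unit apart, with a difference of -2.25 (SE 0.29, limma adjusted p over every probe set = 0.0709) and -1.93 in the 5 arrays (SE 0.17, limma adjusted p = 0.0134). It covers 4 of the 8 measured genes of the family. Whether it also reads the other 4, or the unmeasured MOR111 genes Olfr785 and Olfr789, was not tested.

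MOR110 had a median of -1.26 over 8 members and -1.02 in the 5 arrays, with 1 falling over 6 arrays (Olfr805) and 4 over 5 (Olfr784, Olfr801, Olfr805 and Olfr818). In those fits 0.456% and 1.67% of all genes and 7.49% and 18.3% of the other receptors fell. Another pair of its members stood apart. Olfr804, at 3.38, 3.30 and 3.24 against 3.14, 3.32 and 3.07, lay under the lower quartile on all 6 arrays on its own probe set. The probe sets it shares with Olfr782 read 6.02, 6.34 and 6.29 against 4.74, 6.03 and 5.77. Olfr812 read 6.85, 6.92 and 7.58 against 4.86, 7.19 and 7.33. MOR114, the family with the most measured members (10), was spread from -1.58 (Olfr794) to 0.31 (Olfr769) over 6 arrays and from -1.33 (Olfr799) to 0.80 over 5. Olfr780 read 6.60, 6.53 and 7.65 against 3.99, 6.23 and 6.19 (-1.46, SE 0.67, limma adjusted p = 0.567), and Olfr799 read 4.51, 5.54 and 6.27 against 3.89, 4.25 and 3.98 (-1.40, SE 0.43, limma adjusted p = 0.383). In these the spread within a genotype was wide, and neither passed.

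The families MOR113, MOR210 and MOR108 stood closer to 0. MOR113 (Olfr810, Olfr814, Olfr815, Olfr816 and Olfr822) had a median of -0.33 over 6 arrays and 0.39 over 5, MOR210 (Olfr825, Olfr826 and Olfr827) -0.54 and -0.05, and MOR108 (Olfr792, Olfr798, Olfr809 and Olfr813) -0.58 and -0.07. By limma 0 of these 12 members fell in either fit, where 0.456% and 1.67% of all genes and 7.49% and 18.3% of the other receptors did. With 12 members that count does not set these families apart. Olfr822 of MOR113 read 6.44, 7.26 and 7.80 in Fezf1+/- cells and 5.23, 7.49 and 7.81 in Fezf1-/- cells, and only Fezf1-/- replicate 1 lay below the Fezf1+/- arrays. Olfr821, the only MOR109 member, read 7.10, 7.25 and 7.71 against 4.52, 6.48 and 6.33 and narrowly missed in the 5 arrays (-0.95, SE 0.18, limma adjusted p = 0.0543). Olfr763, the first gene of the cluster, read 4.88, 4.90 and 5.10 against 4.51, 4.85 and 5.10, a difference of -0.14 (SE 0.17).

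**Figure D4:**
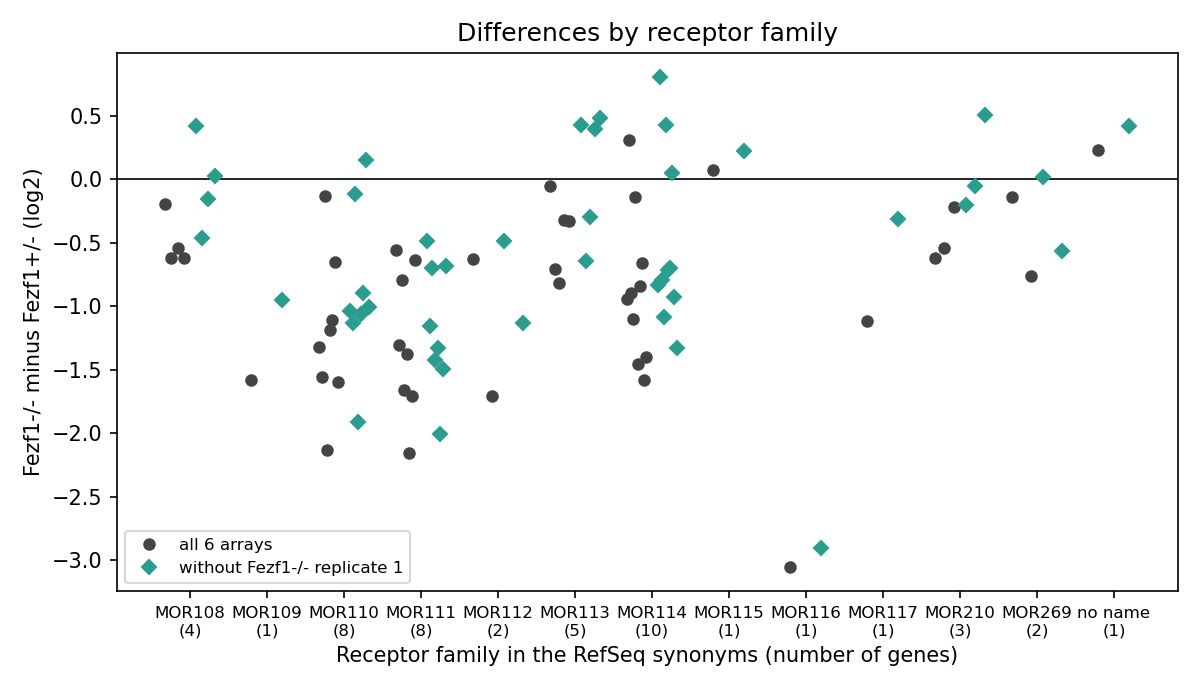
Difference between Fezf1-/- and Fezf1+/- arrays on the log2 scale for each receptor gene, grouped by the MOR family in its RefSeq synonyms, over all 6 arrays (circles) and without Fezf1-/- replicate 1 (diamonds). The 8 MOR111 genes lie between -2.16 and -0.49 in both, and the 5 MOR113 genes between -0.82 and 0.48.

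By position, the 22 measured members from Olfr774 to Olfr806 had a median of -1.24 over 6 arrays and -0.82 over 5, with 4 and 8 that fell. In those fits 0.456% and 1.67% of all genes and 7.49% and 18.3% of the other odorant receptors fell. The 8 members before them had medians of -0.14 and 0.12 with 0 that fell in either fit by limma, 3 and 2 of them lower at an unadjusted p under 0.05 (5.25% and 8.68% of all genes). The 17 members from Olfr807 to Olfr827 had medians of -0.65 and -0.20, with 1 and 3 that fell. These stretches were drawn after the values were seen and are a description. In the Olfr774 to Olfr806 stretch 18 of 22 members had every Fezf1-/- value below every Fezf1+/- value. So did 8.77% of all genes, 44.5% of the other odorant receptors and 56% of the Olfr1006 to Olfr1318 range. All 8 measured MOR111 members lie there, so position and family cannot be told apart for them. Of the 5 members that fell over 6 arrays, 4 belong to MOR110 or MOR111 and lie in the middle stretch, while the MOR110 members Olfr811 (-1.11 over 6 arrays) and Olfr818 (-1.60) lie in the last stretch. Across the 47 genes the rank correlation between order and difference was -0.10 over 6 arrays and 0.07 over 5, and that between Fezf1+/- mean and difference 0.01 and 0.25. These are descriptions across genes measured on the same arrays. The 18 members on the plus strand had medians of -0.82 over 6 arrays and -0.70 over 5, and the 21 on the minus strand -0.71 and -0.46, a difference that was not tested. The strand of the other 8 was not in the window table.

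Of the receptors without a probe set of their own, Olfr823 and Olfr824 shared 2 probe sets with differences of -1.59 (SE 0.27, limma adjusted p over every probe set = 0.156) and -1.67 (SE 0.23, limma adjusted p = 0.0859), and in both every Fezf1-/- array was below every Fezf1+/- array. Their values were 5.05, 5.45 and 5.73 against 3.39, 3.79 and 4.02 on the second. Olfr819, which shares its probe sets with Olfr247, read 7.87, 8.18 and 8.92 against 5.34, 7.26 and 7.90 on the pair of probe sets that hold identical values, and the groups overlapped. Probe sets shared by Olfr777 and Olfr800, by Olfr782 and Olfr804 and by Olfr772 and Olfr773 had differences of -0.97 to -0.57. Of the 11 shared probe sets, 0 passed by limma over 6 arrays (0.273% of all 35557 probe sets), and 1, that of the 4 MOR111 genes, passed over 5 (0.413%). Olfr774, Olfr776, Olfr798, Olfr803, Olfr812 and Olfr822 were named after their values were seen, as was Olfr811.

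For genes that flank the cluster, values were at hand for 10 non-receptor genes before Olfr763 and 2 after Olfr827. By limma 0 of the 12 passed over 6 or 5 arrays, where 0.456% and 1.67% of all genes fell. Over 6 arrays 1 (Gdf11, -0.40) was lower at an unadjusted p under 0.05 (5.25% of all genes). At such shares these 12 genes cannot show where the fall ends. Their median difference was 0.03. Neurod4, a proneural transcription factor gene next to Olfr827, read 4.51, 8.02 and 5.43 in Fezf1+/- cells and 3.94, 4.52 and 3.72 in Fezf1-/- cells, a difference of -1.93 (SE 0.88, limma adjusted p = 0.56). The Fezf1+/- arrays disagreed by more than 3 log2 units and the groups overlapped. Olfr9, the receptor just before Olfr763, read 5.84, 5.80 and 6.15 against 5.49, 5.91 and 6.14, a difference of -0.08 (SE 0.19).

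Genes known to act in receptor choice and in olfactory neurons were set beside the cluster. Of 19 measured regulators of receptor choice, among them Lhx2, Ldb1, the Ebf genes and chromatin genes, 0 passed by limma over 6 arrays. Of all genes, 0.456% fell in that fit. At an unadjusted p under 0.05, 2 of the 19 were lower (5.25% of all genes). The median was -0.15, or 0.08 in the 5 arrays. Ebf4 read 8.95, 8.77 and 8.77 against 7.33, 8.42 and 8.28 (-0.82, SE 0.29, limma adjusted p = 0.46), and Dnmt3a, a DNA methyltransferase gene, differed by -0.39 (SE 0.13). The 18 mature neuron markers had a median of -1.18 over 6 arrays and -0.84 over 5. In the 5 arrays 6 fell (1.67% of all genes), among them the exchanger gene Slc24a4 (-1.15, limma adjusted p = 0.0168) and the phosphodiesterase gene Pde1c (-0.89, limma adjusted p = 0.0272). Among 15 immature neuron markers the median was -0.10 over 6 arrays. There limma called 0, and only the adhesion gene Chl1 was higher at an unadjusted p under 0.05 (4.23% of all genes). Over 5 arrays the median was 0.33 and 3 rose (0.993% of all genes), Chl1 among them (0.77, SE 0.10, limma adjusted p = 0.0126). In that fit 10 of the 15 were higher at an unadjusted p under 0.05 (7.63% of all genes) and 0 were lower. Dcx, a microtubule gene of young neurons, read 11.18, 11.16 and 11.39 against 9.73, 11.13 and 11.17, so that only Fezf1-/- replicate 1 was far below the rest. It was 1 of 2 genes of this list with a negative difference in the 5 arrays (-0.09). Neuronal progenitor genes (11 of 12 measured) had medians of -0.06 and -0.18, and limma called 0 of them in either fit. At an unadjusted p under 0.05, 0 of the 11 were lower or higher over 6 arrays. Over 5 arrays 3 were lower and 2 higher (8.68% and 7.63% of all genes). Hes6 differed by -0.25 (SE 0.10) and Kit by 0.74 (SE 0.32).

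All 6 lists of non-neuronal markers had their highest mean signal on Fezf1-/- replicate 1. Set against the mean of Fezf1-/- replicates 2 and 3, its median shift was 3.54 in the mesenchyme and bone list and 1.88 in the myeloid list. Ensheathing glia (8 of 9 measured) shifted by 1.58, endothelium (8 of 8) by 1.39, sustentacular cells (10 of 12) by 1.14 and erythroid cells (3 of 8) by 1.08. On that array the median shift was -0.66 for the 47 receptors, -0.85 for the other odorant receptors and -1.40 for mature neuron markers. Single genes did not all follow their list. The macrophage gene Cd68 read 7.15 on that array and 5.04 to 5.56 elsewhere, and the glial gene S100b 7.02 against 4.52 to 5.10. The heme synthesis gene Alas2 read 9.78 against 4.77 to 6.08, but the embryonic globin gene Hbb-y, of the same list, 4.95 against 4.91 to 5.39. The glial receptor gene Ngfr read 5.94 against 5.49 to 6.04, and Sec14l3 of the sustentacular list 8.34 against as much as 8.49, so neither was highest on that array. Over 6 arrays the differences were 0.67 for the keratin gene Krt8, 0.51 for the bone factor gene Sp7, 0.54 for the collagen gene Col2a1, 0.83 for the neutrophil gene S100a9, and 0.66 and 0.39 for the endothelial genes Cldn5 and Flt1, and none of these passed by limma. Between genotypes without replicate 1, the medians were -0.56 for sustentacular cells and -0.21 to 0.08 for the other 5 non-neuronal lists, and 7 of the 10 sustentacular genes were lower at an unadjusted p under 0.05 (8.68% of all genes). The 5 receptors that fell over 6 arrays fell in that fit as well, with differences of -2.90 to -1.33. Since that fit reuses arrays by which they were picked, this is not a check. The part of non-neuronal signal in their differences was not tested.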

How the data were processed

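Fezf1+/- and Fezf1-/- cells were sorted from embryonic olfactory epithelium and hybridised to 3 arrays each. The deposited table holds 1 value per probe set and array. The submitters' processing notes name GCRMA and Affymetrix Expression Console, and no versions or settings are given in the sources used here. The deposited values were taken as log2 signal from their range, which the labels do not state, so each fold rests on that base. Array background and probe affinity limit low values, and 3 arrays a group limit the precision.

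Of 35557 probe sets, 21789 had 1 gene symbol in the platform annotation, 1621 several and 12147 none listed. Symbols were updated through the Entrez number for 21698, and the probe set with the highest mean stood for a gene, giving 19938 genes. The log2 values were fitted in R 4.3.3 with limma 3.58.1 (lmFit and eBayes, no covariate), with Benjamini-Hochberg adjustment over all genes. The genes with shared probe sets were fitted over every probe set, a step added after the data were seen. Named members were those that passed over 6 arrays or without Fezf1-/- replicate 1, the 8 with the highest Fezf1+/- means, the 5 most positive and 5 most negative of the rest, and 2 genes per marker list. The fit was tested on simulated data. Members, lists and families were chosen with earlier results of these data known. Alternatives covered normalization, centring, filtering, annotation, moderation, array weights, the replicate block and leaving out each array. Same-numbered arrays were not treated as pairs, since the correlations of their deviations from the group means were 0.23, -0.33 and 0.54. Gene order, family names and windows came from RefSeq (GRCm38.p6 for windows).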

Additional observations from a re-analysis of the deposited data

How the results depend on the processing

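Quantile normalisation, median centring, the mean of a gene's probe sets, platform symbols and the trended, robust fit each left 5 members lower, the same 5 genes. Keeping genes above the median mean retained 16 members and none of the 5 that fell, so 0 members passed by limma (4 were lower before adjustment), 0 with 2-fold, beside 7 other receptors, and members minus other receptors turned to 0.16 from -0.04. Array weights gave 13 members, 10 with 2-fold and 243 other receptors, with members minus other receptors at 0.000445 and positive differences for Olfr827 (0.44), Olfr813 (0.022), Olfr810 (0.32), Olfr792 (0.42) and Olfr772 (0.63). The unmoderated per-gene test called 0 members (20 at an unadjusted p under 0.05), 0 with 2-fold and 5 other receptors. With the replicate block 3 members were lower, 3 of them 2-fold, Olfr788 and Olfr802 being lost, and 70 other receptors. Leaving out 1 array at a time gave 1 to 11 members (1 to 9 with 2-fold) and 32 to 178 other receptors, fewest without Fezf1-/- replicate 2 and most without Fezf1-/- replicate 1. Among the members named by rule, the sign changed over those fits for Olfr763 (-0.28 to 0.016), Olfr765 (-0.00184 to 0.42), Olfr767 (-0.17 to 0.22), Olfr769 (-0.00509 to 0.80), Olfr772 (-0.68 to 0.43), Olfr792 (-0.55 to 0.42), Olfr810 (-0.45 to 0.42), Olfr813 (-0.95 to 0.021) and Olfr827 (-0.60 to 0.50), none of which passed. Without Fezf1-/- replicate 1 the sign also changed for Olfr791 (to 0.048), Olfr812 (0.15), Olfr816 (0.39) and Olfr822 (0.48). Olfr787 was lost without Fezf1+/- replicate 2 or Fezf1-/- replicate 2 or 3, Olfr788 without Fezf1+/- replicate 1 or 3 or Fezf1-/- replicate 2 or 3, and Olfr802 and Olfr805 without any one Fezf1+/- array or Fezf1-/- replicate 2 or 3. Beyond what fewer genes or arrays do by construction, the cause was not tested. Members whose mean lay under the lower quartile of every array, 14 in Fezf1-/- and 5 in both genotypes, are limited by signal over background.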
